A study of Mus musculus with 8 samples.

Results

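The suppressors of cytokine signalling (SOCS) are intracellular proteins that restrain signals from cytokine receptors. Many cytokines act through Janus kinases (JAKs), which phosphorylate STAT transcription factors, and STATs in turn switch on several SOCS genes, so the inhibitor is made in response to the signal it limits. Each SOCS protein has an SH2 domain that binds phosphotyrosine and a SOCS box that recruits an elongin and cullin-5 ubiquitin ligase. SOCS1 and SOCS3 also block the kinase activity of JAKs directly, and in macrophages and microglia they are best known as brakes on interferon and interleukin-6 (IL-6) type signals. The mammalian family has 8 members, Socs1 to Socs7 and Cish, and all 8 were found among the 52636 Ensembl genes of the count table through their GENCODE vM21 symbols.

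The family was examined in primary microglia, the resident macrophages of the brain, from wild-type mice labelled C57BL/6, given as C57BL/6N pups in the methods of the study. The cells had been shaken off mixed glial cultures of neonatal brains and were kept in serum with the survival factor CSF-1 in both groups. There were 4 libraries from cultures given vehicle and 4 from cultures given 5 µg/ml LPS, a bacterial lipopolysaccharide sensed by Toll-like receptor 4, each for 24 h. The labels call the libraries of a group biological replicates, without saying how many animals went into each culture.

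Library totals ranged from 20071921 to 30604447 counts, and counts differed between any 2 libraries of a group by more than counting error (smallest chi-square divided by its degrees of freedom 6.98). Replicates 2 and 4 were the closest pair in both groups, at 11.0 in vehicle and 6.98 with LPS. The other pairs were at 36.0 to 67.0 in vehicle and 60.6 to 155 with LPS. Whether replicates 2 and 4 share a preparation was not tested, and all 4 libraries of a group were treated as independent. Of 10 microglial markers all were tested and 7 were lower and 1 higher after LPS, and their summed level was 9102 to 10345 CPM in vehicle and 2582 to 3023 CPM with LPS, where CPM is the count scaled to a common library size of 1000000. The summed level of 5 markers of oligodendrocyte precursors was 14.8 to 50.7 CPM in vehicle and 0.466 to 7.24 after LPS, with vehicle replicate 3 and LPS replicate 3 the lowest of their groups. Of the lists for cells that could be carried along, 4 of 5 T cell markers and 2 of 5 endothelial markers (Cldn5 and Tek) had at most 3 counts in every library, whereas 3 of 3 tested endothelial markers and 1 of 1 tested fibroblast marker were higher after LPS. The fibroblast sum was 0.0710 to 3.68 CPM in vehicle and 5.14 to 20.9 after LPS, highest in LPS replicate 3. The tested fibroblast marker was Dcn, with at most 7 counts in any vehicle library and means of 0.136 CPM in vehicle and 8.90 after LPS. Lum also averaged higher after LPS (0.0396 and 0.545 CPM). The collagens averaged lower, Col1a1 with 0.530 and 0.0954, Col1a2 with 0.392 and 0.0272 and Col3a1 with 0.286 and 0.0266 CPM. The endothelial sum was at most 73.5 CPM in vehicle and 163 to 254 CPM after LPS. Astrocyte markers summed to 16.5 to 34.9 CPM in vehicle and 36.3 to 109 after LPS, with 1 higher and 3 lower. Oligodendrocyte markers summed to 150 to 205 and 188 to 237 CPM, and 4 of 4 tested neuron markers and 1 of 1 tested T cell marker were lower after LPS. These calls of markers stand beside 64.1% of all tested genes called, 30.3% higher and 33.8% lower. The part of these cells in the changes of SOCS genes was not tested, and in bulk RNA fewer cells of a type and less RNA per cell cannot be told apart.

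Promoter sequences of 4 members, Socs1, Socs3, Socs4 and Cish, were matched in the RefSeq table (GRCm38.p6). The start of a gene is the one given there. For Socs3 and Cish it lies inside the GENCODE locus given below, which covers 3 and 5 transcripts. They are shown for the members with the highest log2 fold changes after LPS, Socs3 and Socs1, and for the STAT-induced gene Cish, because the family is known for induction through STATs. Capitals mark matches to TTCNNNGAA, the palindromic letters of a STAT site, or to the interferon-stimulated response element, read here as GAAA, any 2 bases and GAAA. Both strands were searched.
Socs3, the 250 bases before the start, chr11:117969367-117969616, minus strand: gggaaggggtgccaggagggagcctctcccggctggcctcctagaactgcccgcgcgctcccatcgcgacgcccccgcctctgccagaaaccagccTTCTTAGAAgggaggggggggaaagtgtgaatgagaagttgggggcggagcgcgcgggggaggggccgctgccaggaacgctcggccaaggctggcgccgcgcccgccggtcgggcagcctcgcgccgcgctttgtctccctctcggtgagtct
Socs1, the 250 bases before the start, chr16:10785537-10785786, minus strand: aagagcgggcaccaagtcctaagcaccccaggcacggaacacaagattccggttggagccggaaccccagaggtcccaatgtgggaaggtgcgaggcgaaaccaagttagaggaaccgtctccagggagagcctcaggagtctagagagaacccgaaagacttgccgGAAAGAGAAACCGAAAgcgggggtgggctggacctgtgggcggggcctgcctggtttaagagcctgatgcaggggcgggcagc
Cish, 30 bases around the start, chr9:107296654-107296683, plus strand: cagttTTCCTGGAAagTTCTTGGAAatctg
Socs3 held 1 match to the STAT letters, whose far end lies 154 bases before its RefSeq start. Cish held 2, both within the first 20 bases from its RefSeq start. The Socs1 window held 2 overlapping matches to the interferon element that share 4 bases, and none to the STAT letters. Of all 32851 promoter windows of 300 bases in the table, 8.30% held at least 1 match to the STAT letters and 0.457% at least 2. For the interferon element the shares were 3.44% and 0.225%. The Socs4 window held neither. A match describes these letters only, and no binding was measured.

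The question of the comparison was how 24 h of LPS changed each member. Socs3 and Socs1 rose, Socs5 and Socs6 fell, and Socs2, Socs4, Socs7 and Cish did not pass the test. Counts were compared with the quasi-likelihood test of edgeR, with library scaling by TMM (trimmed mean of M values, which takes most genes as unchanged) and Benjamini-Hochberg adjustment over 13847 tested genes. All 8 members passed the filter on low counts. LPS changed a large part of the transcriptome, so the 4 of 8 members called have to be read against 64.1% of tested genes called, 30.3% higher and 33.8% lower. The groups did not overlap for 3 of the 8 members, against 60.2% of tested genes (28.7% with the LPS libraries above and 31.5% with them below). The median log2 fold change of the 8 members was −0.13, beside −0.11 for all tested genes.

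**Figure D1:**
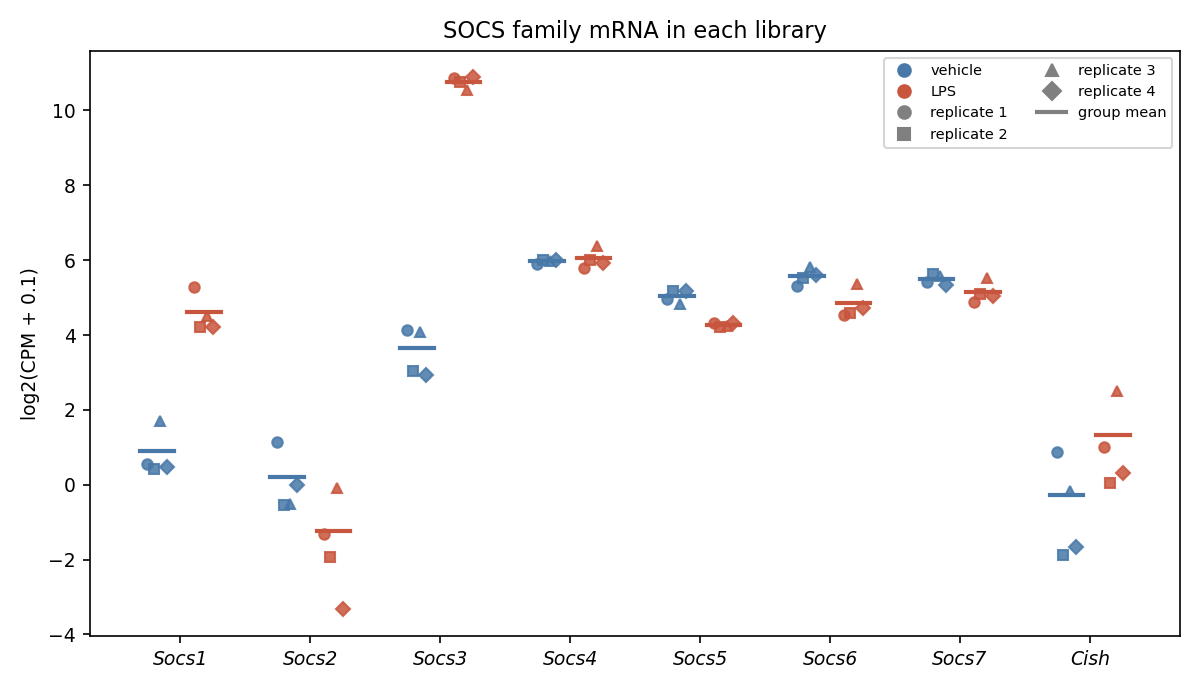
Level of each SOCS family gene in each of the 8 libraries, as log2(CPM + 0.1) on the vertical axis, with vehicle in blue, LPS in red, symbols for replicate numbers and bars for group means (log2 of the mean CPM + 0.1). The 4 LPS libraries lie above all vehicle libraries for Socs1 and Socs3 and below them for Socs5, and LPS replicate 3 is the highest LPS library for 5 genes.

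Socs3, which binds the IL-6 signal transducer gp130 and the G-CSF receptor and inhibits the JAK held there, changed most. Its locus is chromosome 11, 117966079 to 117970047, in GRCm38. Its counts were 500, 234, 532 and 211 in vehicle replicates 1 to 4 and 30972, 32099, 32177 and 34922 in the LPS replicates. In CPM these were 17.5, 8.10, 16.9 and 7.49 in vehicle and 1854, 1748, 1501 and 1889 after LPS. No vehicle library came near an LPS library, and within vehicle, replicates 1 and 3 lay above replicates 2 and 4. The mean rose from 12.5 ± 5.44 to 1748 ± 175 CPM (SD, n = 4 each), or by 7.13 ± 0.36 (SE) on the log2 scale (edgeR adjusted p = 4.01e-07). This was the 103rd largest rise of the 13847 tested genes.

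Socs1, the main inhibitor of interferon receptor signalling in the family, lies on chromosome 16 from 10782240 to 10785536. It had 39, 36, 100 and 36 counts in the vehicle and 649, 338, 483 and 342 counts in the LPS libraries. The corresponding levels were 1.37, 1.25, 3.17 and 1.28 CPM in vehicle and 38.8, 18.4, 22.5 and 18.5 CPM after LPS. All LPS libraries were higher, with vehicle replicate 3 well above the others of its group and LPS replicate 1 above the others of its own. Its mean rose from 1.77 ± 0.94 to 24.6 ± 9.71 CPM (SD, n = 4 each), or by 3.79 ± 0.38 (SE) on the log2 scale (edgeR adjusted p = 2.30e-05). The direction and call of Socs1 and Socs3 held in every alternative fit.

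Cish and Socs2 are known as targets of STAT5, the STAT downstream of GM-CSF, IL-3, erythropoietin and growth hormone, and both were near the limit of detection. Cish, on chromosome 9 from 107296026 to 107302784, had 50, 5, 25 and 6 counts in vehicle and 32, 17, 120 and 21 counts in LPS libraries. In CPM it was at 1.75, 0.173, 0.793 and 0.213 in vehicle and at 1.92, 0.926, 5.60 and 1.14 after LPS. The groups overlapped because vehicle replicate 1 was high, but in 4 of 4 same-numbered pairs the LPS library was higher. The log2 fold change was 1.71 (95% interval −0.06 to 3.49, edgeR adjusted p = 0.083). With the replicate number as a block it was 1.84 (standard error 0.51, edgeR adjusted p = 0.0139), a call in the higher direction, where 65.3% of tested genes were called, 29.7% higher. Vehicle replicate 1 and LPS replicate 3 decided the unpaired value. Without vehicle replicate 1 the log2 fold change was 2.58 (edgeR adjusted p = 0.0225), and without LPS replicate 3 it was 0.85 (adjusted p = 0.335). Exons of Gm17040 and Gm17041 on the opposite strand overlapped 11.5% of its exonic bases and 9.35% of its 50-base windows also occur in other transcripts, so reads of Cish may be mixed with theirs, as the use of strand in counting is not known here.

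Socs2, which limits growth hormone signalling, lies on chromosome 10 from 95385362 to 95417180. It had 60, 17, 19 and 25 counts in vehicle and 5, 3, 18 and 0 counts in LPS libraries. For the 0 in LPS replicate 4, the exact Poisson 95% interval reaches up to 3.69 expected counts of Socs2. Its levels were 2.10, 0.588, 0.603 and 0.888 CPM in vehicle and 0.299, 0.163, 0.840 and 0 CPM after LPS. Of the LPS libraries, 3 lay below all vehicle libraries, and replicate 3 lay among them. The log2 fold change was −1.62 (95% interval −3.38 to 0.14, edgeR adjusted p = 0.0957). Without LPS replicate 3 it was −2.74 (edgeR adjusted p = 0.0188), and with vehicle replicate 1 left out instead it was −1.02 (adjusted p = 0.294). Of its 50-base windows, 4.58% occur in other transcripts.

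Socs4 and Socs5 form a pair with long N-terminal regions and are known to act on the epidermal growth factor receptor. Socs5, on chromosome 17 from 87107679 to 87137839, stood at 31.1, 35.7, 28.2 and 35.7 CPM in vehicle and at 19.9, 18.4, 18.8 and 19.7 CPM after LPS. The LPS libraries were all lower and close together. It fell by 0.77 on the log2 scale (standard error 0.11, edgeR adjusted p = 1.86e-04), from 32.7 ± 3.70 to 19.2 ± 0.75 CPM (SD, n = 4 each).

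Socs4, on chromosome 14 from 47276931 to 47296102, was at 59.9, 64.3, 62.9 and 63.9 CPM in vehicle and at 55.4, 64.5, 82.9 and 60.7 CPM after LPS. The vehicle libraries lay within the range of the LPS libraries. The log2 fold change was 0.07 (95% interval −0.21 to 0.35, edgeR adjusted p = 0.639). Its direction depended on the scaling. When libraries were scaled by their totals alone, Socs4 fell by 0.62 on the log2 scale (edgeR adjusted p = 2.83e-04), and with upper quartile scaling the value was −0.09 (adjusted p = 0.452). Scaling by totals moved the median of all tested genes by −0.68 on the log2 scale and upper quartile scaling by −0.16. With totals 75.4% of tested genes were called, 61.1% lower and 14.4% higher, so that 19.0% of the calls were in the higher direction in place of 47.2%.

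Socs6 and Socs7 form the remaining pair, known for contacts with the insulin receptor pathway. Socs6, on chromosome 18, was at 39.2, 46.2, 56.7 and 48.1 CPM in vehicle and at 23.0, 24.1, 41.4 and 26.1 CPM after LPS. The groups touched only through LPS replicate 3 and vehicle replicate 1. It fell by 0.73 on the log2 scale (standard error 0.20, edgeR adjusted p = 0.00895), and 2 other genes share 6.14% of its 50-base windows. Socs7, on chromosome 11 from 97362551 to 97398542, was at 43.0, 49.3, 47.4 and 40.3 CPM in vehicle and at 29.6, 34.4, 45.8 and 32.6 CPM after LPS. Here too LPS replicate 3 reached into the vehicle range while the other LPS libraries lay below it. Its log2 fold change was −0.34 (95% interval −0.66 to −0.02, edgeR adjusted p = 0.0615). The LPS library was lower in 4 of 4 same-numbered pairs, and with the replicate block the value was −0.35 (edgeR adjusted p = 0.0355), a call in a fit that called 35.6% of tested genes lower. Without LPS replicate 3 it was −0.48 (adjusted p = 0.00242).

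**Figure D2:**
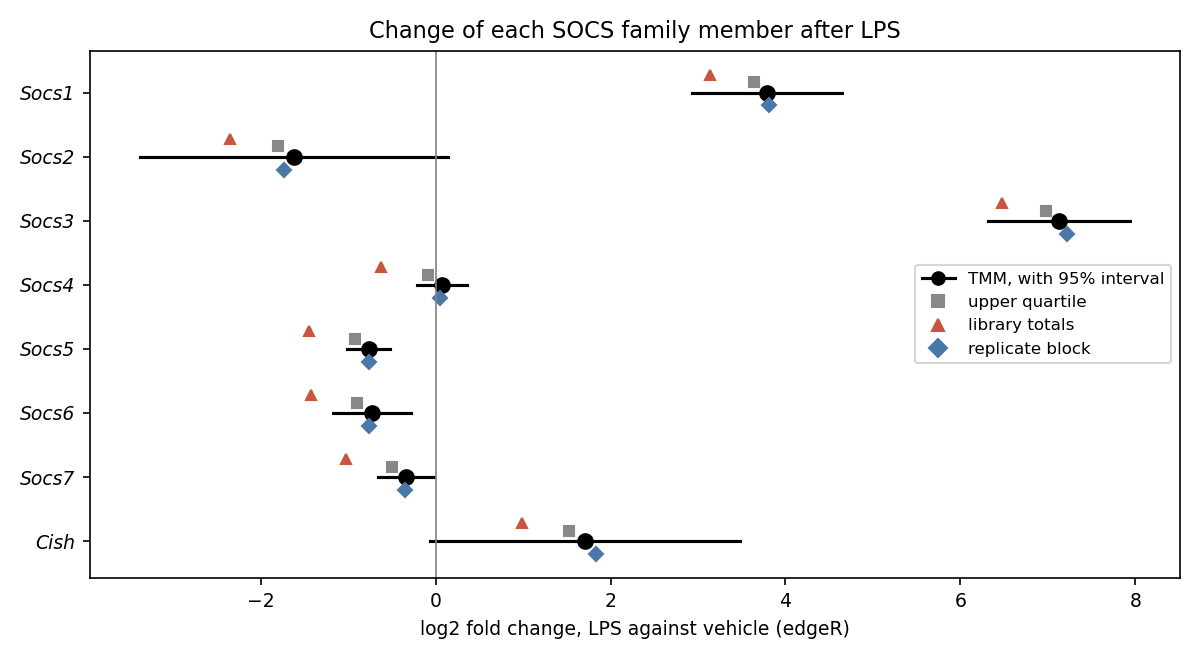
Log2 fold change of each SOCS family gene, LPS against vehicle, on the horizontal axis. Black points and lines give the edgeR fit with TMM scaling and its 95% interval, and the other symbols give the fits with upper quartile scaling, scaling by library totals and the replicate block. Socs3 (7.13) and Socs1 (3.79) stay far from 0 in all 4 fits, whereas Socs4 moves from 0.07 to −0.62 with library totals.

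LPS replicate 3 was the highest LPS library for 5 of the 8 members (Socs2, Socs4, Socs6, Socs7 and Cish) and the lowest for Socs3. The same library was the highest of its group for 40.8% of all tested genes with TMM scaling, and with library totals, where it was again the highest for these 5 members, for 24.9%. Its TMM factor was 0.701, against 0.816 to 0.833 in the rest of the LPS group and 1.21 to 1.32 in the vehicle group. This library had the highest total of the 8.

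To see which member supplies most of the family's mRNA, levels were divided by the length of the exons. In vehicle cultures, with the union of exons as length, Socs4 led with 9.12 ± 0.29 CPM per kb (SD, n = 4), above Socs7 (6.19 ± 0.56), Socs5 (5.10 ± 0.58), Socs3 (4.32 ± 1.88) and Socs6 (4.19 ± 0.63). The ranges of Socs7 and Socs5, of Socs5 and Socs3 and of Socs3 and Socs6 overlapped. Socs7 lay above Socs5 in 3 of the 4 libraries, Socs5 above Socs3 in 2 and Socs3 above Socs6 in 2. Differences between these neighbours were not tested. Socs1 (0.607 ± 0.323), Cish (0.114 ± 0.115) and Socs2 (0.110 ± 0.075) were far lower, and the last 2 overlapped. The order below Socs4 turned with the length used. With the longest transcript, Socs6 (7.88 ± 1.19) and Socs5 (7.03 ± 0.79) came before Socs7 (6.41 ± 0.58) and Socs3 (4.89 ± 2.13), and the ranges of all neighbours from Socs4 to Socs3 overlapped.

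After LPS, Socs3 stood at 605 ± 60.6 CPM per kb (SD, n = 4). Next came Socs4 (9.58 ± 1.74) and Socs1 (8.45 ± 3.34), whose ranges overlapped, then Socs7 (4.90 ± 0.98), Socs5 (3.00 ± 0.12) and Socs6 (2.52 ± 0.76), of which the last 2 overlapped, and then Cish (0.373 ± 0.339) and Socs2 (0.0342 ± 0.0382). Socs3 thus made up 14.3% ± 5.67 of the summed family level in vehicle and 95.4% ± 1.05 after LPS (SD, n = 4 each). The sum without Socs3 was 25.4 ± 1.16 CPM per kb in vehicle and 28.9 ± 4.13 after LPS. Sums over chosen members were not tested.

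**Figure D3:**
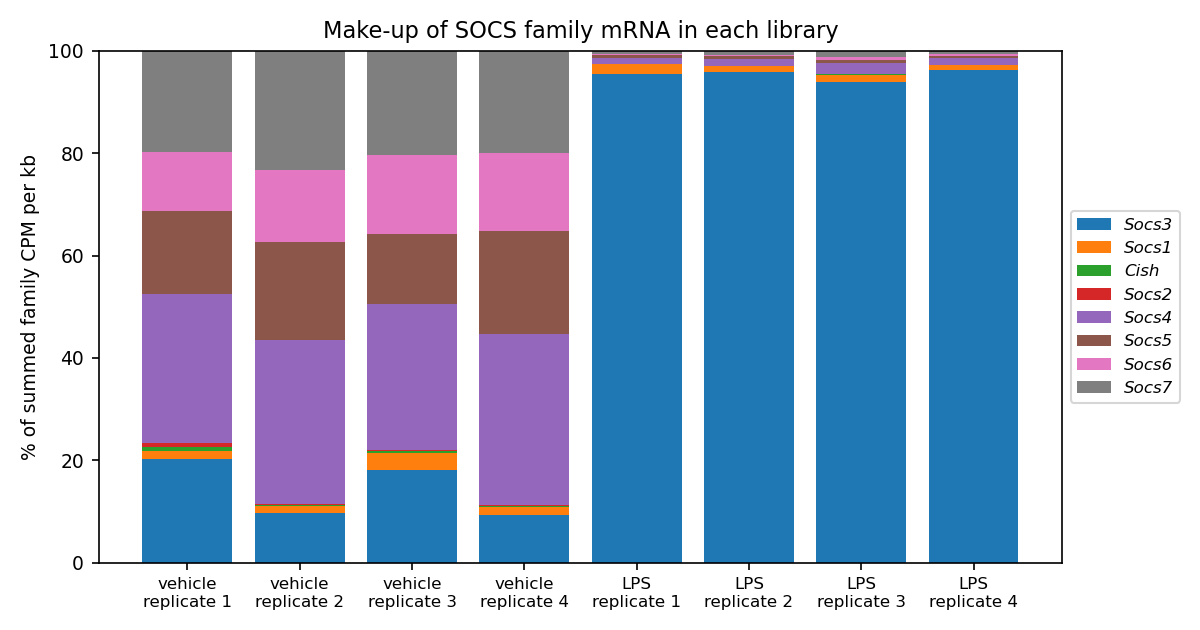
Share of each member in the summed CPM per kb of the 8 SOCS family genes, as a percentage on the vertical axis, for each of the 8 libraries on the horizontal axis. Socs3 takes 9.32% to 20.2% of the vehicle sums and 93.9% to 96.3% of the LPS sums.

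A ratio of 2 genes within a library does not depend on how libraries are scaled. To each count 0.5 was added, which weighs on low counts. Ratios were taken between closest relatives and between a SOCS gene and a STAT gene, 7 in all, of which 6 are given, and compared by two-sided exact permutation over the 70 divisions of the libraries. The smallest p this design allows is 0.0286. Socs1 relative to Socs3 had a log2 ratio of −2.82 ± 0.57 in vehicle and −6.22 ± 0.51 after LPS (SD, n = 4 each), so Socs3 gained 10.5-fold on Socs1 (exact permutation p = 0.0286, adjusted over the 7 ratios 0.0333). Cish relative to Socs2 went from −0.88 ± 1.13 to 3.25 ± 1.46, with the LPS libraries above the vehicle libraries in all cases (exact permutation p = 0.0286, adjusted 0.0333). The pair thus parted although neither gene passed the unpaired test alone, and 5 of the 16 counts behind it are 6 or fewer. In LPS replicate 4 Socs2 had 0 counts, so the log2 ratio of 5.43 there rests on the added 0.5.

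Socs4 relative to Socs5 rose by 0.81, from 0.95 ± 0.15 to 1.76 ± 0.29, and Socs6 relative to Socs7 fell by 0.41, from 0.07 ± 0.21 to −0.34 ± 0.15 (SD, n = 4 each). For each the groups did not overlap (exact permutation p = 0.0286, adjusted 0.0333). Stat3 carries IL-6 and IL-10 signals, and the log2 ratio of Socs3 to Stat3 moved from −3.98 ± 0.52 to 1.03 ± 0.23, a gain of 5.02 (exact permutation p = 0.0286, adjusted 0.0333). Cish relative to Stat5a was −4.26 ± 1.43 in vehicle and −3.22 ± 1.37 after LPS, and its groups overlapped (exact permutation p = 0.343, adjusted 0.343). Within same-numbered pairs, exact sign flips of 4 differences allow no p under 0.125.

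**Figure D4:**
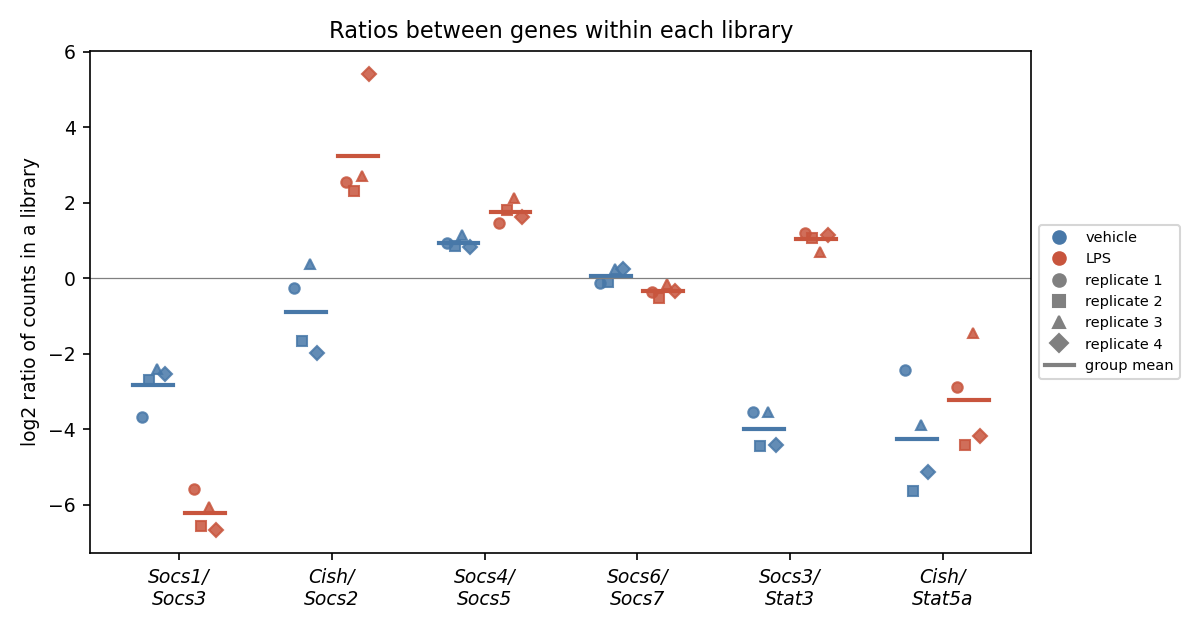
Log2 ratio of the counts of 2 genes in the same library, vertical axis, for 6 ratios on the horizontal axis, with vehicle in blue, LPS in red, symbols for replicate numbers and bars for group means. In 5 of the ratios the groups do not overlap, and in Cish/Stat5a they do.

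The rest of the pathway was read from lists of genes in the same fit. Of 24 ligands of JAK-coupled receptors, 12 passed the filter on low counts, 7 of them with under 10 counts in at least 1 library. Those near 0 in vehicle could pass only through the LPS libraries, so the call of all 12 as higher is no result about the list. With at least 10 counts required in every library 5 were tested and 5 were higher, where 32.1% of all such genes were higher and 34.5% lower. These 5, named after their values were seen, were Il10, Il27, Ebi3, Il15 and Osm. Il6, the prototype signal through gp130, went from 0.121 ± 0.202 to 500 ± 242 CPM (SD, n = 4 each, edgeR adjusted p = 1.50e-06). Csf3, which encodes G-CSF, went from 0.362 ± 0.561 to 392 ± 191 CPM (adjusted p = 6.90e-06). Il12b, a subunit of IL-12 and IL-23, had 2 counts in all vehicle libraries together and 63.1 ± 79.6 CPM after LPS (adjusted p = 1.18e-04), and 3863 of its 5117 LPS counts came from a single library. Of the ligands not tested, 8 had at most 3 counts in every library.

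Of 34 receptor genes, 27 were tested, and 14 were higher and 7 lower, beside 30.3% and 33.8% of all tested genes. Of the 27, 6 had under 10 counts in at least 1 library, and among the other 21 genes 9 were higher and 5 lower. With library totals in place of TMM, 9 of the 27 were higher and 10 lower, beside 14.4% and 61.1% of all tested genes. Il2ra (9.12), Il23r and Il15ra (4.35), subunits of the IL-2, IL-23 and IL-15 receptors, had the largest rises in log2 fold change with a mean of at least 1 log2 CPM. Il23r had 3 counts in all vehicle libraries together and 6.25 ± 2.51 CPM (SD, n = 4) after LPS. Il2ra had at most 4 counts in any vehicle library and 31.3 ± 15.6 CPM (SD, n = 4) after LPS. Both could pass the filter only through the LPS libraries, and the size of their rises rests on vehicle levels near 0. Il6st, which encodes the gp130 chain that SOCS3 binds, fell from 172 ± 45.1 to 45.6 ± 8.20 CPM (SD, n = 4 each), by 1.92 on the log2 scale (edgeR adjusted p = 3.13e-05). Lifr, its partner chain for leukemia inhibitory factor, fell from 25.7 ± 8.27 to 1.55 ± 0.62 CPM (adjusted p = 7.92e-06), and Epor, the erythropoietin receptor, from 6.34 ± 1.86 to 0.131 ± 0.066 CPM (adjusted p = 2.28e-06). Chosen after their values were seen, Il6ra, the specific IL-6 receptor chain, fell by 0.58 (adjusted p = 0.00349), and Csf3r, the G-CSF receptor, rose by 1.16 on the log2 scale (adjusted p = 1.66e-04). Ghr, the growth hormone receptor that SOCS2 limits, averaged 0.164 CPM in vehicle, had at most 5 counts in any LPS library and was not tested.

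All 4 JAK kinases were tested and 3 were higher, where 30.3% of all tested genes were higher and 33.8% lower. Jak2, which serves gp130, G-CSF and interferon gamma receptors, rose from 67.4 ± 6.60 to 773 ± 103 CPM (SD, n = 4 each), or by 3.52 ± 0.15 (SE) on the log2 scale (edgeR adjusted p = 1.55e-07). Jak1 rose by 0.89 (adjusted p = 2.50e-04) and Tyk2 by 0.36 (adjusted p = 0.0155) on the log2 scale, but with library totals Jak1 was at 0.20 (adjusted p = 0.0689) and Tyk2 at −0.31 (adjusted p = 0.0288). Tyk2 was also not called with upper quartile scaling (0.21, adjusted p = 0.105). Of 7 STATs, 6 were tested and 5 were higher, beside the same 30.3% of all tested genes. The log2 fold changes were 2.21 for Stat3 and 1.99 for Stat2 (edgeR adjusted p of 6.61e-07 and 6.71e-05). Stat6, a STAT of IL-4 signals named after its value was seen, was called at 0.27 (adjusted p = 0.045), but not with the replicate block (0.26, adjusted p = 0.0587) or with upper quartile scaling (0.11, adjusted p = 0.293), so that 4 STATs were higher in each of these fits. Scaled by library totals, Stat6 was called lower (−0.42, edgeR adjusted p = 0.00141). With library totals 3 STATs were higher and 2 lower, and 1 JAK was higher and 1 lower. Of all tested genes 14.4% were then higher and 61.1% lower.

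The SOCS box works through a ligase of elongins B and C, cullin 5 and a RING protein. Of 9 genes of this machinery, 3 were higher and 2 lower, and of all tested genes 30.3% were higher and 33.8% lower. Eloc, for elongin C, rose from 34.8 ± 2.08 to 67.4 ± 6.83 CPM (SD, n = 4 each, edgeR adjusted p = 3.08e-05). Ube2f, whose product attaches NEDD8 to cullin 5, rose by 1.04 (adjusted p = 1.52e-05) and Arih2, a ligase that works with cullin 5, by 0.70 on the log2 scale (adjusted p = 1.75e-04). Arih2 was at 0.02 with library totals (adjusted p = 0.869), where Ube2f (0.36) and Eloc (0.27) stayed higher. That scaling called 5 of the 9 genes lower, beside 61.1% of all tested genes. Cul5, the scaffold, fell from 44.6 ± 1.44 to 30.4 ± 3.31 CPM (adjusted p = 9.03e-04), and Rbx1 fell by 0.51 on the log2 scale (adjusted p = 0.0157). Rbx1 was at −0.44 without LPS replicate 2 (adjusted p = 0.0535) and at −0.45 without LPS replicate 4 (adjusted p = 0.0509), and then not called. The RING protein of the cullin 5 complex, Rnf7, was at 20.2 ± 0.74 CPM in vehicle and 19.9 ± 2.79 after LPS (adjusted p = 0.858), and was singled out after its value was seen.

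Among 20 other genes for proteins with a SOCS box, 16 were tested, and 6 were higher and 4 lower, beside 30.3% and 33.8% of all tested genes. With library totals they were 3 and 7, beside 14.4% and 61.1%. Spsb1 and Spsb2 encode adaptors known to bring inducible nitric oxide synthase to degradation, and they parted. Spsb1 rose from 10.1 ± 2.10 to 27.9 ± 7.13 CPM (SD, n = 4 each, edgeR adjusted p = 2.65e-04), and Spsb2 fell from 25.8 ± 2.83 to 10.6 ± 3.57 CPM (adjusted p = 8.59e-04). Asb4 and Wsb1 rose by 1.97 and 1.22 on the log2 scale, and Neurl2 fell by 3.63 (adjusted p of 0.00143, 2.20e-05 and 4.03e-05). Asb10 had 1404 counts over the vehicle and 0 over the LPS libraries, at least 299.6-fold lower with a floor of 3 counts over the group.

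Of 13 other inhibitors of JAK and STAT signalling, 13 were tested, and 7 were higher and 0 lower, where 64.1% of all tested genes were called, 30.3% higher. Usp18, which blocks the type I interferon receptor, rose from 68.9 ± 28.5 to 1366 ± 300 CPM (SD, n = 4 each), or by 4.31 ± 0.33 (SE) on the log2 scale (edgeR adjusted p = 3.84e-06). Ptpn2, a phosphatase of JAKs and STATs, rose from 19.5 ± 0.63 to 58.4 ± 15.1 CPM (adjusted p = 2.59e-05), and the ubiquitin ligase gene Cblb rose by 0.79 on the log2 scale (adjusted p = 8.17e-04), or 0.11 with library totals (adjusted p = 0.481). With library totals, which moved the median of all genes by −0.68, 2 of the 13 were higher and 6 lower. Of the 7 called higher with TMM, 3 were then below 0. The median log2 fold changes were 0.46 for receptors, 0.71 for JAKs, 1.06 for STATs, 0.12 for the ligase machinery, 0.21 for other SOCS box genes and 0.49 for other inhibitors.

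**Figure D5:**
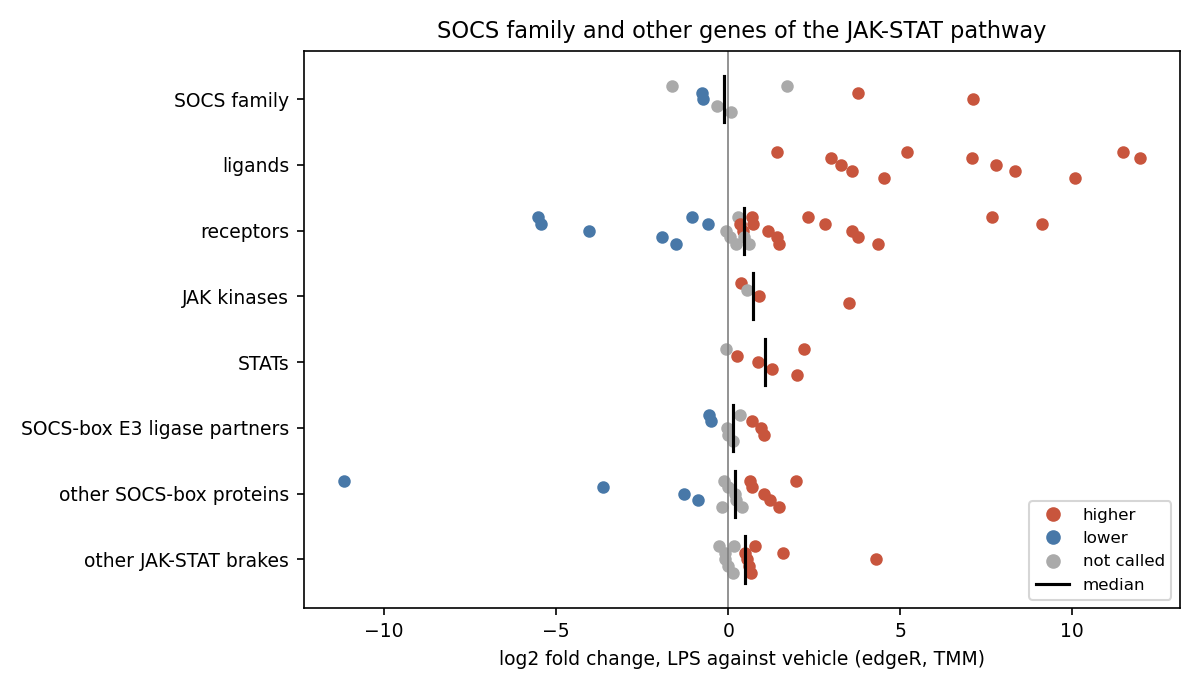
Log2 fold change, LPS against vehicle, of each tested gene of the SOCS family and of 7 lists of pathway genes (edgeR, TMM scaling), 1 point per gene, red for higher, blue for lower and grey for not called, with a black bar at the median of each list but the ligands, of which 7 of 12 had under 10 counts in at least 1 library. The family spreads from −1.62 (Socs2, not called) to 7.13 (Socs3).

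The genes whose pattern over the 8 libraries was most like that of a member were taken from 11074 tested genes with a mean of at least 1 log2 CPM, by Pearson's r of log2 CPM. Genes and members share the same 8 libraries, and any difference between the groups enters r, which does not measure the size of a change. For Socs3 they were Hcls1 (r of 0.999), Bambi-ps1 (0.999) and Pde4b (0.999), which rose by 2.71, 6.51 and 3.76 on the log2 scale. For Socs1 they were Bag1 (0.995), Pdcd6ip (0.995) and Creld2 (0.994), with log2 fold changes of 0.84, 0.25 and 1.39 beside 3.79 for Socs1. For Socs5 they were Cbx5 (0.997), Tpgs2 (0.996) and Kif21b (0.994). They were Hgsnat, Trim16 and Gm12115 for Cish (0.970, 0.967 and 0.964) and Chfr and AU022252 for Socs2 (0.961 and 0.957). For Socs4 they were Rcor1, Brd7 and Rhot1 (0.990, 0.986 and 0.981), for Socs6 Gng2, Vps39 and Clec12a (0.990, 0.989 and 0.989), and for Socs7 Usp8, Zbtb39 and Tpmt (0.971, 0.964 and 0.963).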

How the data were processed

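RNA of 8 microglia libraries was sequenced in single-end reads. The authors used HTSeqGenie, with GSNAP as the aligner and GRCm38 as the build, to filter and align reads and to count those with a unique alignment per Ensembl gene, and the deposited values are these raw counts. Use of strand is not given in the sources used here, which name different library kits. Members were found through GENCODE vM21 symbols. Members, lists and named genes (up to 3 called rises and falls per list, at a mean log2 CPM of at least 1) were chosen with earlier results of these data known.

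Counts were tested with edgeR 4.0.16 in R 4.3.3 (TMM, filterByExpr with a minimum count of 10 and total of 15, quasi-likelihood test, two-sided), with Benjamini-Hochberg adjustment over all tested genes and a threshold of 0.05. CPM are counts divided by the TMM-scaled library total and multiplied by 1000000, and per kb values divide by the union of exons. Ratios used log2 of counts plus 0.5. Values of some genes, with 1 ratio, are not reported here. P-values measure the spread between these libraries. Intervals and floors for counts cover counting error only. Fits and permutation tests were tested on simulated data.

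Same-numbered libraries were treated as pairs in a second fit, since their deviations from the group means correlated with r of 0.361, 0.183, 0.183 and 0.130 over 8382 genes, although replicates 2 and 4 also correlated when crossed (0.154 and 0.141). Alternatives were DESeq2 1.42.0, RLE and upper quartile scaling, other filters, a threshold of 0.01, the replicate block, each library left out, and, added after the data were seen, scaling by library totals. Tables used Python 3.11.15 with pandas 2.3.3 and scipy 1.17.1, figures matplotlib 3.10.9.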

Additional observations from a re-analysis of the deposited data

Results flagged for a closer look

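Among 30 groups of 4 values, 2 held a library far from the other 3, where chance alone flags about 1 in 20 groups. Socs1 was at 3.17 CPM in vehicle replicate 3 and at 1.25 to 1.37 CPM in the other vehicle libraries. The log2 ratio of Cish to Socs2 was 5.43 in LPS replicate 4 and 2.32 to 2.70 in the other LPS libraries, and rests on 0 counts of Socs2 there.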

How the results depend on the processing

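Scaling by library totals reversed Socs4 (−0.62), brought Socs2 (−2.35) and Socs7 (−1.03) past the threshold and raised the members called lower from 2 to 5, while over all genes the calls went from 4191 higher and 4686 lower to 1988 and 8457. Socs7 also passed with upper quartile scaling (−0.50), with at least 10 counts in every library (−0.40) and with the replicate block (−0.35), and Cish with the replicate block (1.84) and DESeq2 (1.76). The replicate block changed no other call of a member. With 1 library left out, the log2 fold change ranged from −2.74 to −1.02 for Socs2, −0.48 to −0.25 for Socs7 and 0.85 to 2.58 for Cish, the members called higher numbered 2 to 3 and those called lower 2 to 4 (4 without LPS replicate 3), and the Socs6/Socs7 difference ranged from −0.47 to −0.34. Exact sign flips of the 4 pairs, a replicate block for the ratios, cannot pass the threshold. The mean difference within pairs equals the difference of group means by construction, so the sizes had to stay the same (−3.40 for Socs1/Socs3, 4.13 for Cish/Socs2, 0.81 for Socs4/Socs5, −0.41 for Socs6/Socs7 and 5.02 for Socs3/Stat3). With the longest transcript in place of the union of exons, vehicle shares were 0.682% for Socs2, 25.2% for Socs4, 21.6% for Socs6 and 17.7% for Socs7, and LPS shares 0.579% for Socs5 and 0.679% for Socs6. Under library totals the machinery of the SOCS box had 5 genes lower in place of 2, and with at least 10 counts in every library, which leaves fewer genes to test, 5 ligands and 9 receptors were higher in place of 12 and 14. Beyond these constructions the cause was not tested. Depth limits Cish and Socs2, at 0 to 120 counts a library.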
